A study of Mus musculus with 3 samples.

Results

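Type I interferon antiviral genes are mouse genes whose products block viruses, sense their nucleic acids or tag viral and host proteins, listed here with the ligand Ifnb1 and the receptor chains Ifnar1 and Ifnar2. The list holds 44 genes, and a probe was taken for a member when it was not a control and its gene name equalled a listed symbol. Of these, 43 were named on the array, among 34821 gene names in all, and Ifi205 was not. Signals usable on all 3 arrays were obtained for 42 members, of 33597 gene names, and 41 of the 42 were well above background on every array. Ifnb1 was the exception, being well above background with Triple only. The sole probe of Uba7, the enzyme that activates ISG15, carried a background outlier mark on the Triple array, so Uba7 entered no count of signals or folds.

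The cells were bone-marrow-derived macrophages of C57BL/6J mice, grown from marrow with macrophage colony-stimulating factor, in a study on receptors that macrophages use to take up blood cells. Total RNA was taken 20 h after stimulation and hybridised to 1-colour Agilent arrays, 1 array per condition. The conditions, by their labels, were CpG (DNA that activates TLR9), IFN-g+IL-10RB (interferon gamma with a blocker of the IL-10 receptor, written below as IFN-γ plus αIL-10R) and triple (all of these agents, written Triple). No unstimulated array exists, so each comparison is between stimuli, and with 1 array per condition no test and no replicate check were possible.

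Each array held 59305 spots, of which 46.0% were well above background with CpG, 44.8% with IFN-γ plus αIL-10R and 44.4% with Triple, and 0 were saturated on any of them. Signals are the scanner's processed intensities, in arbitrary units. Folds are given as log2 differences after the arrays were brought to the same 75th percentile, so a fold can differ slightly from the ratio of the printed signals. The only error these arrays hold is the spread of repeated spots, which gave a technical SD of a log2 fold of 0.13 for Triple over CpG, 0.13 for Triple over IFN-γ plus αIL-10R and 0.12 for IFN-γ plus αIL-10R over CpG. That SD pools dim and bright spots: for signals over 1000, where 39 of 41 members lay on all arrays, 2 technical SDs come to 0.15 or 0.16 rather than 0.25 to 0.27. A gene is called higher or lower when the fold exceeds 2. The number of arrays limits the precision of every value.

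Macrophage markers were present. All 7 measured were well above background on every array, among them Csf1r, the receptor for the growth factor in the medium, with signals of 196810 with CpG, 230482 with IFN-γ plus αIL-10R and 159074 with Triple. Their levels differed between stimuli. Cd14, the lipopolysaccharide co-receptor, gave 55389 with CpG, 5534 with IFN-γ plus αIL-10R and 90961 with Triple, Itgam 26993, 10577 and 16377, Fcgr3 7748, 18931 and 13123, Mertk 812, 1983 and 3164, Cd68 153505, 190933 and 83203, and Emr1 151532, 80481 and 134178. With IFN-γ plus αIL-10R, 2 of the 7 were over 2-fold higher and 2 lower than with CpG, and their part in the antiviral signals was not tested. None of the 3 natural killer cell markers (Ncr1, Klrb1c, Eomes) was well above background on any array.

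As background, type I interferons bind the receptor formed by IFNAR1 and IFNAR2, and the kinases JAK1 and TYK2 then activate transcription factors that, with IRF9, form the complex ISGF3 on interferon-stimulated response elements (ISREs). Interferon gamma uses a separate receptor and acts on genes through gamma-activated sites (GASs), and many antiviral genes respond to both kinds of interferon. Macrophages can make interferon beta after their Toll-like receptors sense microbial nucleic acids.

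Triple over CpG shows the antiviral genes with interferon gamma and the receptor blocker added to CpG. In this comparison 23 of 42 members were over 2-fold higher with Triple, against 7.47% of the 18335 genes well above background on at least 1 of the arrays compared. None of the members was over 2-fold lower, against 8.34% of those genes. The median log2 fold of the 41 members well above background on all arrays was 1.05, with quartiles of 0.44 and 1.46, and that of the 15894 such genes was -0.05. Of these 41 members, 38 had a fold above 0, all but Ifnar1, Ifnar2 and Oas2, against 45.4% of all genes. The signs of Oas1a, Oas2, Ddx58 and Ifnar2 changed under some alternatives. Of the same 41, 4 (9.76%) lay within 2 technical SDs of no difference, as did 43.2% of all genes.

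IFN-γ plus αIL-10R over CpG compares the stimuli applied apart from each other. Here 15 of 41 members were over 2-fold higher with IFN-γ plus αIL-10R, against 5.84% of 18280 genes, and none was over 2-fold lower, against 5.06%. The median log2 fold was 0.83 over the members and 0.00 over all genes. A fold above 0 was found for 39 members of 41, all but Ddx58 and Ifnar1, against 50.2% of all genes. The sign of Oas2 changed under some alternatives. The CpG array is part of this comparison and of the one with Triple, so the counts of both rest on the same CpG signals.

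Triple over IFN-γ plus αIL-10R shows the antiviral genes with CpG added. Only Ifnb1 was over 2-fold higher with Triple, against 6.57% of 18063 genes, and only Ifit3 was over 2-fold lower, against 9.31%. Neither call held under every alternative: housekeeping scaling gave 9 members higher and 0 lower, with 4730 genes higher in all, and requiring both arrays well above background left 0 members higher. The median log2 fold of the members was 0.04 and that of all genes -0.04. The median size of a member's log2 fold, sign aside, was 0.23, and that of all genes 0.32. Of the 41 members, 21 (51.2%) were within 2 technical SDs of no difference, as were 41.6% of all genes, but with the SD of each signal's own range, a choice made after seeing the data, these were 13 members (31.7%) and 38.3% of genes. Signs in this comparison depended on the scaling: 27 of the members changed sign under at least 1 of the alternative treatments of the data, mostly scaling to spike-in controls or to housekeeping genes, so a direction is given below only where the sign held under all of them, or with the exception named.

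**Figure D1:**
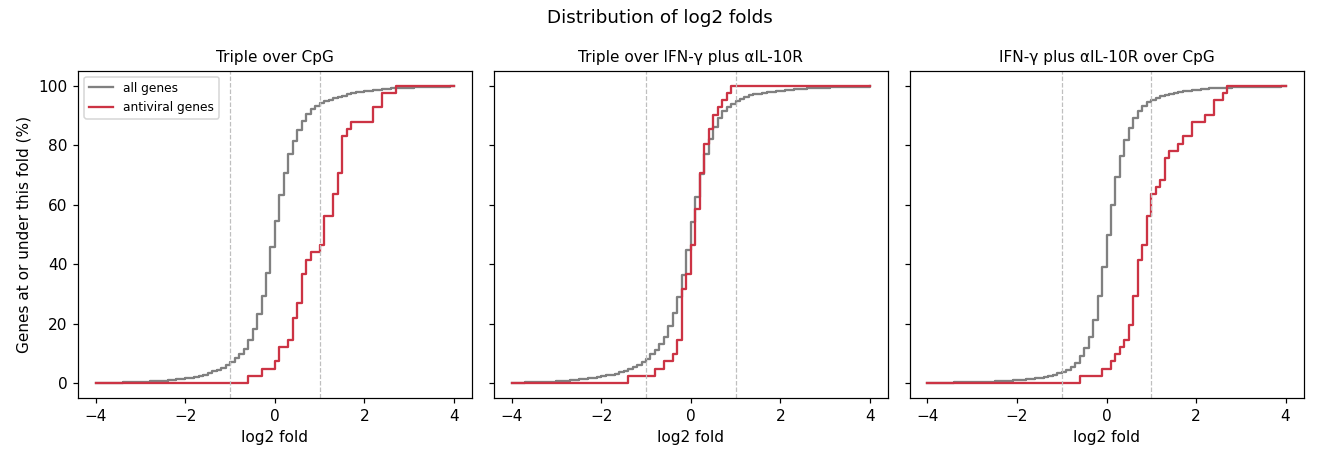
Share of genes, in percent, at or under each log2 fold in the 3 comparisons, for the antiviral genes (red) and all genes (grey), with dashed lines at 2-fold. Up to a log2 fold of 2.6 the red line lies to the right of the grey one in Triple over CpG (median 1.05 against -0.05). The same holds for IFN-γ plus αIL-10R over CpG (0.83 against 0.00). In Triple over IFN-γ plus αIL-10R (0.04 against -0.04) the lines cross between 0.1 and 0.2.

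At the scaling used, the CpG array held the lowest scaled signal for 37 of the 41 members (90.2%) and for 29.4% of all genes. The exceptions were Ddx58 and Ifnar1, lowest with IFN-γ plus αIL-10R, and Oas2 and Ifnar2, lowest with Triple. The highest scaled signal was on the Triple array for 21 members, on the IFN-γ plus αIL-10R array for 19 and on the CpG array for 1, Ifnar1. For all genes these shares were 31.9%, 34.3% and 33.8%. The split between Triple and IFN-γ plus αIL-10R depends on the scaling, since 27 members changed sign in that comparison under some alternatives. In bulk RNA, fewer cells expressing a gene and less of its RNA per cell cannot be told apart.

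**Figure D2:**
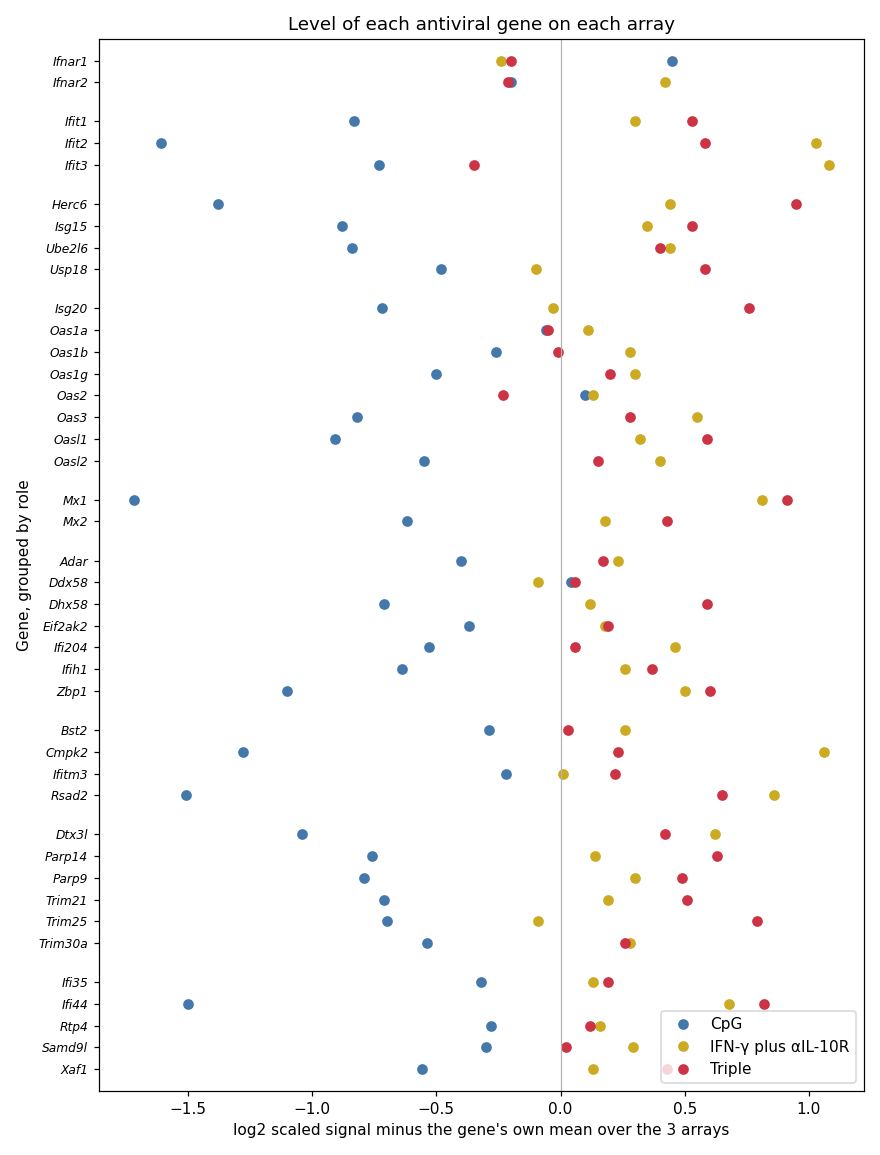
Log2 scaled signal of each member minus its own mean over the 3 arrays, grouped by role, 1 point per array (CpG blue, IFN-γ plus αIL-10R yellow, Triple red). At this scaling the blue point is leftmost for 37 of 41 genes, and the yellow and red points lie near each other for most genes, Ifit3 with a log2 difference of -1.43 being the widest gap.

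Promoter stretches are shown as a description of sequence, the ISRE being the element through which ISGF3 and IRF proteins act. The members were listed as interferon antiviral genes, so their share of ISREs is no result of these arrays. The part of these elements in the signals was not tested. Promoters came from RefSeq (mouse build GRCm38.p6), as windows of 300 bases that start 250 bases before each start site, and 33 of the 44 members matched by name. Mx1, Mx2, Oas1b, Oas2, Usp18, Dhx58, Zbp1, Rtp4, Ifi204, Parp9 and Parp14 were not matched in the table used. The core of the ISRE was searched as GAAA, any 2 bases and GAAA again, and the GAS as TTCNNNGAA, each on both strands. An ISRE core was found in windows of 15 of the 33 genes (45.5%) and of 3.99% of the 27025 genes with a promoter in the table. A GAS was found for 10 members (30.3%) and for 9.55% of all genes. The members' windows held 26 ISRE core matches, and 2 of them overlapped a GAS match. Counted by window, 16 of the members' 39 windows held an ISRE core, as did 3.44% of 32851 windows in all.

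Stretches of up to 40 bases follow for the 10 members with an ISRE core wholly before a start site, each read 5′ to 3′ along the gene, with the last core before the start site in capitals (TTTC, any 2 bases and TTTC where it lies on the opposite strand).
Bst2: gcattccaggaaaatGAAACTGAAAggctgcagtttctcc
Ifi205: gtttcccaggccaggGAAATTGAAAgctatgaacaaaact
Ifit1: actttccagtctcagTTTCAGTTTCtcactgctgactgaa
Ifit3: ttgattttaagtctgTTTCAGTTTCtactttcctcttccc
Isg15: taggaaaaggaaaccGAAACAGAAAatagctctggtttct
Oas1a: ccttctcgggaaatgGAAACTGAAAatct
Oas1g: ccttctcgggaaatgGAAACTGAAAat
Oas3: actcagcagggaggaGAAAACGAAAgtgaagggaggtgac
Rsad2: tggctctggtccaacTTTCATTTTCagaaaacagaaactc
Trim30a: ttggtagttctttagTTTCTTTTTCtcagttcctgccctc

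The stretch of Bst2 is chr8:71537572-71537611 on the minus strand, that of Ifi205 is chr1:174031865-174031904 on the minus strand, and that of Ifit1 is chr19:34640789-34640828 on the plus strand. That of Ifit3 is chr19:34583392-34583431 on the plus strand, and that of Isg15 is chr4:156200860-156200899 on the minus strand. Oas1a (chr5:120907526-120907554) and Oas1g (chr5:120887614-120887640) lie on the minus strand with nearly the same bases, as does Oas3 (chr5:120777710-120777749) on that strand with other bases. Rsad2 (chr12:26456548-26456587) and Trim30a (chr7:104465205-104465244) are also on the minus strand. The cores begin at base -124 from the start site for Bst2, -85 for Ifit1, -66 for Isg15, -120 for Rsad2 and -12 for Oas1g. Median log2 folds of Triple over CpG were 0.74 for the 14 measured members with an ISRE core in the window and 1.35 for the 16 without. For IFN-γ plus αIL-10R over CpG these medians were 0.86 and 0.82. A match describes letters only.

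**Figure D3:**
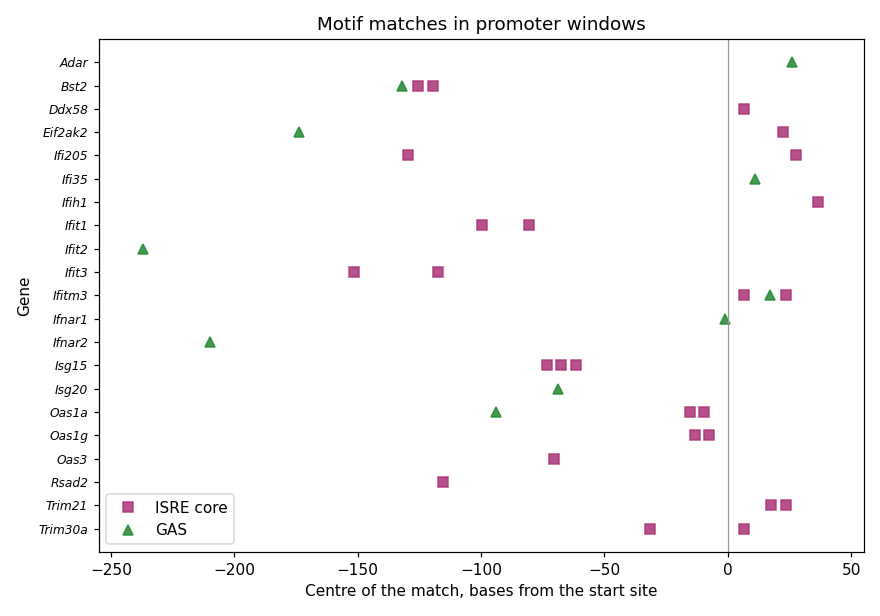
Position of each ISRE core (squares) and GAS (triangles) match in the members' promoter windows, as the distance of its centre from the start site in bases. The 3 ISRE cores of Isg15 lie before the start site, each overlapping its neighbour, the nearest beginning at base -66, while those of Ifih1, Ddx58, Eif2ak2, Ifitm3 and Trim21 lie after it.

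The ligand and its receptor chains come first in the pathway. Ifnb1, which encodes interferon beta and has its probe at chr4:88168023-88168082 of mm9, gave signals of 24.5 with CpG, 13.5 with IFN-γ plus αIL-10R and 173 with Triple, and only the last was well above background. At the scaling used, its signal was therefore at least 7.35-fold higher with Triple than with CpG and at least 6.64-fold higher than with IFN-γ plus αIL-10R. No fold is given between the dim arrays. Both values depend on the scanner's background subtraction and on the scaling. With normexp correction the log2 folds were 1.42 and 1.36, in place of 2.88 and 2.73. Spike-in scaling lowers both values too, moving the median log2 fold of all genes by -0.09 over CpG and -0.16 over IFN-γ plus αIL-10R. Ifnar1 gave 4647 with CpG, 2831 with IFN-γ plus αIL-10R and 2855 with Triple, with log2 folds over CpG of -0.69 and -0.65. This receptor chain was the only 1 of 41 members highest with CpG, and it did not pass 2-fold. Its 2 other probes gave smaller log2 folds, -0.25 and -0.22 for Triple over CpG and -0.59 and -0.26 for IFN-γ plus αIL-10R over CpG, and housekeeping scaling brought the fold of Triple over CpG by the probe used from -0.65 to -0.05. Ifnar2, the other chain, gave 12777 with CpG, 19282 with IFN-γ plus αIL-10R and 12202 with Triple. It was highest with IFN-γ plus αIL-10R (log2 fold over CpG 0.62), except under housekeeping scaling, where Triple over IFN-γ plus αIL-10R was 0.09, and its log2 fold of Triple over CpG was -0.01.

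The IFIT proteins bind viral RNA and restrain its translation. Ifit1 gave 4086 with CpG, 8761 with IFN-γ plus αIL-10R and 10072 with Triple. Its signal was lowest with CpG, with log2 folds of 1.36 for Triple and 1.13 for IFN-γ plus αIL-10R over CpG. Ifit2 gave 2973, 18236 and 12996 in that order of arrays. It had the largest log2 fold of IFN-γ plus αIL-10R over CpG among the members, 2.64, and that of Triple over CpG was 2.18. Ifit3 (probe at chr19:34663105-34663164 of mm9) gave 18765 with CpG, 64747 with IFN-γ plus αIL-10R and 23504 with Triple. Unlike Ifit1 and Ifit2, it was under 2-fold above its CpG level with Triple (log2 fold 0.38, and 0.98 under housekeeping scaling) and higher with IFN-γ plus αIL-10R (1.81 over CpG). The log2 fold of Triple over IFN-γ plus αIL-10R was -1.43 for Ifit3, negative under every alternative tried but short of 2-fold under housekeeping scaling (-0.71), and those of Ifit1 and Ifit2 were 0.23 and -0.46, the latter positive under that scaling (0.26). Probes of these genes lie on chromosome 19.

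ISG15 is a ubiquitin-like protein that UBE2L6 and HERC6 attach to targets and USP18 removes. Isg15 itself gave 83557 with CpG, 192352 with IFN-γ plus αIL-10R and 213261 with Triple. Its folds over CpG were 1.41 with Triple and 1.23 with IFN-γ plus αIL-10R on the log2 scale. Herc6, the ligase, gave 839, 2907 and 4053 in the same order. It stood lowest with CpG and highest with Triple, with log2 folds over CpG of 2.33 for Triple and 1.82 for IFN-γ plus αIL-10R. Ube2l6, the conjugating enzyme, gave 9859, 23544 and 22460, with log2 folds over CpG of 1.24 and 1.28 for Triple and IFN-γ plus αIL-10R. Usp18, the protease that also restrains the interferon receptor, gave 18597, 23895 and 37265. Its log2 fold over CpG was 1.06 with Triple and 0.39 with IFN-γ plus αIL-10R, and the first fell short of 2-fold under spike-in scaling. With the background outlier mark ignored, a choice made after seeing the data, Uba7 gave 16323, 26733 and 24711, with log2 folds over CpG of 0.66 for Triple and 0.73 for IFN-γ plus αIL-10R. The 4 measured genes of this group were all over 2-fold higher with Triple than with CpG, and 3 of them with IFN-γ plus αIL-10R, Usp18 being the exception.

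OAS enzymes make the second messenger that activates RNase L, and ISG20 is an RNA exonuclease. Of the 8 genes of this group, 3 were over 2-fold higher with Triple than with CpG and 2 with IFN-γ plus αIL-10R than with CpG. Oasl1 gave 18350 with CpG, 42216 with IFN-γ plus αIL-10R and 49811 with Triple, with log2 folds over CpG of 1.5 for Triple and 1.23 for IFN-γ plus αIL-10R. Oas3 gave 5443, 13844 and 11214, with log2 folds over CpG of 1.1 and 1.37. Both were lowest with CpG. Isg20 gave 6941, 11020 and 18651, and it was highest with Triple, 1.48 over CpG and 0.79 over IFN-γ plus αIL-10R on the log2 scale. Oas1a gave 111089, 123220 and 107998, with log2 folds over CpG of 0.02 for Triple and 0.17 for IFN-γ plus αIL-10R. Oas2 gave 16542, 16540 and 12659, with log2 folds over CpG of -0.33 and 0.02. For these members the arrays lay close together, and the signs of Oas1a and Oas2 in Triple over CpG, and of Oas2 in IFN-γ plus αIL-10R over CpG, changed under some alternatives. The dimmest of the group, Oas1g, gave 78.6, 134 and 122, where repeated spots under 100 units vary with an SD of 0.20 to 0.22 on the log2 scale. The remaining genes, Oas1b and Oasl2, had log2 folds of Triple over CpG of 0.25 and 0.70 and of IFN-γ plus αIL-10R over CpG of 0.54 and 0.95. The probe used for Oas1a resembles a probe of Oas1f, that of Oas1b probes of 7 other names, that of Ifih1 a probe of Zfp869 and that of Zbp1 a probe of Sgsm3, and the part of such transcripts in these signals was not tested.

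Mx proteins are GTPases that trap viral components. Mx1 (probe at chr16:97668644-97668703 of mm9) gave 3616 with CpG, 20612 with IFN-γ plus αIL-10R and 21591 with Triple. By the probe used for each gene, it had the largest log2 fold of Triple over CpG among the 41 members well above background on all arrays, 2.63. Its log2 fold of IFN-γ plus αIL-10R over CpG was 2.54. Mx2 gave 1370, 2338 and 2730, with log2 folds over CpG of 1.05 for Triple and 0.80 for IFN-γ plus αIL-10R. Both genes were lowest with CpG, and the fold of Mx2 for Triple passed 2-fold by little, missing it with no scaling and with spike-in scaling.

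Sensors of viral nucleic acids and the RNA editor ADAR make up the next group, with 7 genes measured. Zbp1, a sensor of Z-form nucleic acid, gave 21255 with CpG, 63283 with IFN-γ plus αIL-10R and 66123 with Triple, and its log2 folds over CpG were 1.69 for Triple and 1.60 for IFN-γ plus αIL-10R. Dhx58 gave 6922, 12128 and 16424, with log2 folds over CpG of 1.30 and 0.83. Its protein LGP2 and that of Ifih1, MDA5, are relatives of the RNA sensor RIG-I, the product of Ddx58. Ifih1 gave 5184, 9518 and 10029, with a log2 fold of Triple over CpG of 1.01 that 6 of the alternatives brought under 2-fold. Ddx58 gave 15486, 13942 and 15107. Unlike its relatives, Ddx58 barely differed between arrays by the probe used, with log2 folds over CpG of 0.02 for Triple and -0.13 for IFN-γ plus αIL-10R. The sign of the first changed under some alternatives, and the other Ddx58 probe gave -0.5 for Triple over CpG. Ifi204, a DNA sensor of the PYHIN family, gave 75446, 147472 and 109469, with log2 folds over CpG of 0.59 and 0.99. Eif2ak2 (the kinase PKR) and Adar had log2 folds of Triple over CpG of 0.57 and 0.56 and of IFN-γ plus αIL-10R over CpG of 0.56 and 0.62. In this group 3 of 7 genes were over 2-fold higher with Triple than with CpG, and 1, Zbp1, with IFN-γ plus αIL-10R.

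Restriction factors at membranes and in nucleotide supply include RSAD2 (viperin), which makes a chain-terminating nucleotide, and CMPK2, a nucleotide kinase whose gene lies beside Rsad2 on chromosome 12. Rsad2 gave 5547 with CpG, 28088 with IFN-γ plus αIL-10R and 23745 with Triple, and its log2 folds over CpG were 2.15 for Triple and 2.36 for IFN-γ plus αIL-10R. Cmpk2 gave 2741, 13646 and 7516, with log2 folds over CpG of 1.51 and 2.34. Both neighbours were far lower with CpG, and Cmpk2 was lower with Triple than with IFN-γ plus αIL-10R under every alternative, by a log2 fold of -0.83 (-0.11 under housekeeping scaling). Ifitm3, which hinders viral fusion, was measured by repeated spots of 1 probe (8, 8 and 7 spots used) and gave 116929, 134848 and 152916. Bst2 (tetherin), which holds budding virions at the cell surface, gave 79995, 115551 and 96548. Both of these abundant signals differed by less than 2-fold, with log2 folds of Triple over CpG of 0.44 for Ifitm3 and 0.33 for Bst2. Before scaling, spots of Ifitm3 ranged from 112419 to 120601 with CpG, 127318 to 143729 with IFN-γ plus αIL-10R and 143987 to 157105 with Triple. These spots repeat 1 RNA on 1 array and hold no spread between cultures.

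Enzymes that add ubiquitin or ADP-ribose form a group in which 5 of 6 genes were over 2-fold higher with Triple than with CpG, Trim30a (0.79 on the log2 scale) being the exception, Trim25 by a repeat-like probe, and 2 of 6, Parp9 and Dtx3l, with IFN-γ plus αIL-10R. Parp9 and Dtx3l, neighbours on chromosome 16 whose proteins act as a complex, gave 9006 and 8130 with CpG, 18859 and 25248 with IFN-γ plus αIL-10R, and 21047 and 21481 with Triple. Each was lowest with CpG, by log2 folds for Triple of 1.28 for Parp9 and 1.46 for Dtx3l. Parp14 gave 18612, 34102 and 46910, with log2 folds over CpG of 1.39 for Triple and 0.90 for IFN-γ plus αIL-10R. Trim21, a cytosolic antibody receptor, gave 4636, 8493 and 10367, with log2 folds over CpG of 1.22 and 0.90. Trim25, a ligase linked to RIG-I signalling, gave 43226, 64866 and 116807 with its brightest probe, and log2 folds of 1.49 for Triple over CpG and 0.88 for Triple over IFN-γ plus αIL-10R. That probe is a TG repeat that shares runs of 20 bases with probes of 52 other gene names, so its value cannot be assigned to Trim25 alone. The other Trim25 probe gave 39425, 49901 and 45313, with log2 folds of 0.26, and of -0.11 for Triple over IFN-γ plus αIL-10R. Without repeat-like probes, a choice made after seeing the data, 21 members were over 2-fold higher with Triple than with CpG.

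Of the other interferon-stimulated genes, Ifi44 gave 3209 with CpG, 14339 with IFN-γ plus αIL-10R and 15502 with Triple. It was the only 1 of these 5 genes past 2-fold, with log2 folds over CpG of 2.33 for Triple and 2.18 for IFN-γ plus αIL-10R. Xaf1, which promotes apoptosis, gave 13509, 21322 and 25695, and its log2 fold of Triple over CpG of 0.98 lay just under 2-fold and above it under 5 of the alternatives. Rtp4, Ifi35 and Samd9l had log2 folds of Triple over CpG of 0.40, 0.52 and 0.32 and of IFN-γ plus αIL-10R over CpG of 0.43, 0.45 and 0.59. All were lowest with CpG.

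The size of the difference between the highest and the lowest array varied widely among the 41 members well above background on all arrays, from 0.15 for Ddx58 to 2.64 for Ifit2 on the log2 scale. Several folds lay near the threshold. In Triple over CpG, 8 members lay within 2 technical SDs of a 2-fold difference and 6 of those were called. For IFN-γ plus αIL-10R over CpG these counts were 13 and 4.

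Other probes of the same genes give a check within each array. For 17 members, 20 further probes were well above background on every array, and their log2 folds differed from those of the probe used by a median of 0.26 in Triple over CpG, 0.13 in Triple over IFN-γ plus αIL-10R and 0.12 in IFN-γ plus αIL-10R over CpG. In Triple over CpG, 11 of the 20 differed by no more than 2 technical SDs. Adar and Zbp1 had larger folds with the other probe (1.25 and 2.67 for Triple over CpG, on the log2 scale), and Xaf1 a smaller one (0.37). Herc6 had 2.03 in place of 2.33 there, and an Oas1b probe 0.59 in place of 0.25. The second Ifih1 probe gave 0.91 in that comparison, short of 2-fold, and that of Ddx58 gave -0.50. For IFN-γ plus αIL-10R over CpG, the second Ifi204 probe gave 1.01, past 2-fold, and that of Zbp1 gave 2.5 in place of 1.6. Xaf1 was the only gene with opposite signs that both passed 2 technical SDs, 0.30 and -0.37 in Triple over IFN-γ plus αIL-10R.

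**Figure D4:**
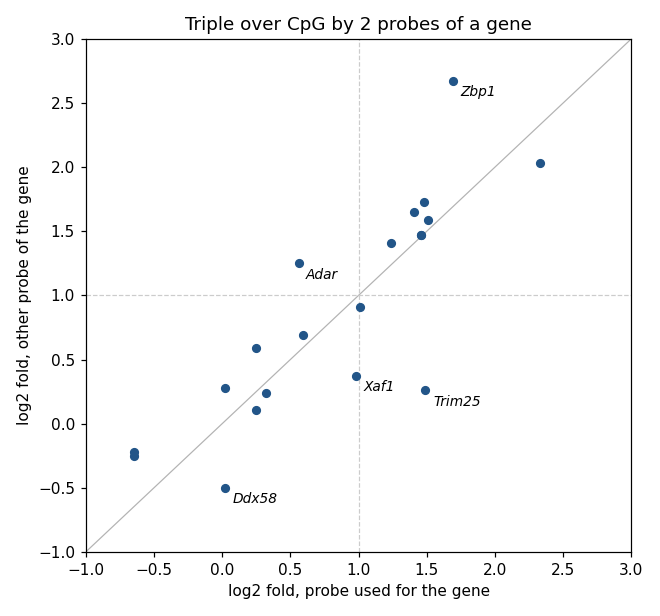
Log2 fold of Triple over CpG by the probe used for a gene (horizontal axis) and by another probe of that gene (vertical axis), 1 point per further probe, with equality as a solid line and 2-fold as dashed lines. Trim25 lies farthest from equality (1.49 against 0.26), followed by Zbp1 (1.69 against 2.67).

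Genes of interferon signalling that are not members were measured for 25 of 28 listed. With Triple, 6 were over 2-fold higher than with CpG and none lower, with a median log2 fold of 0.45, and 15 were higher under housekeeping scaling. Stat2, part of ISGF3, had log2 folds over CpG of 0.95 for Triple and 1.02 for IFN-γ plus αIL-10R, and Irf9, also part of it, of 0.13 and -0.02. Irf1 gave 9196, 132675 and 123964 (log2 folds over CpG 3.81 and 3.88), and Irf8 had 2.20 and 1.96. Irf7 had 0.94 and 0.65, Irf2 0.63 and 1.21, and Irf3 0.02 and -0.13. The largest fold of the list belonged to Socs1, a feedback inhibitor of JAK kinases, at 5.64 with Triple and 5.29 with IFN-γ plus αIL-10R over CpG. Tmem173 (STING) had a log2 fold of IFN-γ plus αIL-10R over CpG of 2.52, and Ikbke (-1.59), Socs3 (-1.06) and Ticam1 (-0.59) had the lowest. Among the 25, 8 were over 2-fold higher and 2 lower with IFN-γ plus αIL-10R than with CpG, and 3 higher and 2 lower with Triple than with IFN-γ plus αIL-10R, which became 7 and 0 under housekeeping scaling and 3 and 4 under spike-in scaling. In the latter comparison the highest log2 folds were those of Socs3 (2.71), Ikbke (2.40) and Ticam1 (1.32), and the lowest those of Mb21d1 (-1.08), Tlr3 (-1.0) and Tmem173 (-0.99). The lowest folds of Triple over CpG were those of Mb21d1 (-0.73), Tlr7 (-0.56) and Mavs (-0.16).

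Other ligands were mostly dim. Of the 12 measured genes of other type I and III interferons and Ifng, 4 were well above background on every array. Ifnl3 gave 122 with CpG, 280 with IFN-γ plus αIL-10R and 194 with Triple, Ifna1 gave 67.0, 40.5 and 47.3, Ifna12 gave 33.0, 38.7 and 32.0, and Ifna14 gave 62.6, 71.4 and 64.5. Ifna5, with 41.5 for CpG and 42.7 for Triple, was dim with IFN-γ plus αIL-10R. Ifnab gave 142 with CpG and was at background on the other arrays, and Ifna2 gave 33.8 with CpG. The call of Ifnab as over 2-fold lower with Triple than with CpG was lost with outlier spots kept or background outlier marks ignored. It was also lost with the authors' table and with both arrays required well above background. Signals of Ifna4, Ifna11, Ifna13, Ifne and Ifng were not well above background on any array.

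Further interferon-stimulated genes outside the members, 57 measured, included 25 over 2-fold higher with Triple than with CpG, and 25 higher and 2 lower with IFN-γ plus αIL-10R than with CpG. With Triple, 3 were higher and 4 lower than with IFN-γ plus αIL-10R, and this balance turned with the scaling, to 12 and 2 under housekeeping scaling and 2 and 6 under spike-in scaling. Housekeeping scaling also gave 40 higher in Triple over CpG. Their median log2 folds were 0.85, -0.07 for Triple over IFN-γ plus αIL-10R, and 0.91 for IFN-γ plus αIL-10R over CpG. The largest folds of Triple over CpG were those of Gm4951 (4.17), Ifi47 (2.57) and Ifitm1 (2.54), and the lowest those of Ifi27l2a (-0.78), Ifi27l1 (-0.67) and I830012O16Rik (-0.43). Plac8 (5.97), Gm4951 (4.21) and Gm14446 (3.43) led IFN-γ plus αIL-10R over CpG, with Ifitm2 (-1.82), Ifi27l1 (-1.33) and Ifitm1 (-0.68) at the other end. For Triple over IFN-γ plus αIL-10R, Ifitm1 (3.22), Ifitm2 (1.77) and Helz2 (1.01) were highest and Plac8 (-3.51), I830012O16Rik (-2.19) and Slfn9 (-1.12) lowest. I830012O16Rik, a relative of Ifit3, gave 3661 with CpG, 12184 with IFN-γ plus αIL-10R and 2607 with Triple. Like Ifit3, it was highest with IFN-γ plus αIL-10R.

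For scale, lists tied to interferon gamma and to Toll-like receptors are set beside the members. All 16 guanylate-binding proteins and immunity-related GTPases were over 2-fold higher with Triple and with IFN-γ plus αIL-10R than with CpG, with median log2 folds of 5.34 and 4.61, beside 1.05 and 0.83 for the antiviral genes. Gbp4 (9.08), Gbp11 (7.04) and Gbp5 (6.69) led Triple over CpG, and Gbp4 (7.78), Gbp11 (7.09) and Gbp8 (6.43) led IFN-γ plus αIL-10R over CpG. In Triple over IFN-γ plus αIL-10R 2 of them passed 2-fold (5 under housekeeping and 1 under spike-in scaling) and their median was 0.21, between Gbp4 (1.30), Gbp10 (1.1) and Gbp5 (0.80) and Gbp8 (-0.79), Irgm2 (-0.23) and Igtp (-0.21). Of 14 classical interferon gamma targets measured, 11 were over 2-fold higher with Triple than with CpG, 12 of 13 with IFN-γ plus αIL-10R than with CpG, and 3 with Triple than with IFN-γ plus αIL-10R, where 1 was lower (5 and 1 under housekeeping scaling, 3 and 3 under spike-in scaling). Over the 13 of them well above background on all arrays, median log2 folds were 2.55, 2.0 and -0.16 in that order. Triple over CpG had Cxcl9 (12.6), Cxcl10 (6.72) and H2-Eb1 (3.41) in front and Ciita (-0.79) and Cxcl11 (-0.57) below 0. Cxcl9 (8.57), Cxcl10 (5.73) and H2-Eb1 (4.36) also led IFN-γ plus αIL-10R over CpG, where only Cxcl11 (-0.01) was below 0, and for Triple over IFN-γ plus αIL-10R Cxcl9 (4.03), Cd274 (1.51) and Cxcl10 (0.99) were highest and Ciita (-2.00), H2-Eb1 (-0.95) and H2-Aa (-0.90) lowest. The 15 cytokines and feedback genes of Toll-like receptors were all over 2-fold higher with Triple than with IFN-γ plus αIL-10R. The median log2 fold of the 9 well above background on all arrays was 3.57, where the antiviral genes had 0.04. With both arrays required well above background, 9 of the 15 were over 2-fold higher. Nos2 (7.37), Ptgs2 (5.85) and Ccl3 (4.00) were the highest of those above background on both arrays, and Nos2 (8.93), Ptgs2 (7.73) and Il12b (6.90) of those in Triple over CpG. Over CpG, 13 of the 15 were higher with Triple (median 1.73), and with IFN-γ plus αIL-10R 2 were higher and 9 lower (median -1.27), or 2 and 5 with both arrays required well above background. In IFN-γ plus αIL-10R over CpG, Ptgs2 (1.88) and Nos2 (1.56) were above 0 and Nfkbiz (-3.35), Ccl3 (-2.71) and Nfkbia (-2.55) lowest. None of 9 housekeeping genes passed 2-fold in any comparison, except Pgk1 in those with Triple under housekeeping scaling, with medians of -0.06, -0.10 and 0.02 for Triple over CpG, Triple over IFN-γ plus αIL-10R and IFN-γ plus αIL-10R over CpG. Their extremes were Pgk1 (0.62 and 0.60 in the comparisons with Triple) and Hprt (-0.60 and -0.72).

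**Figure D5:**
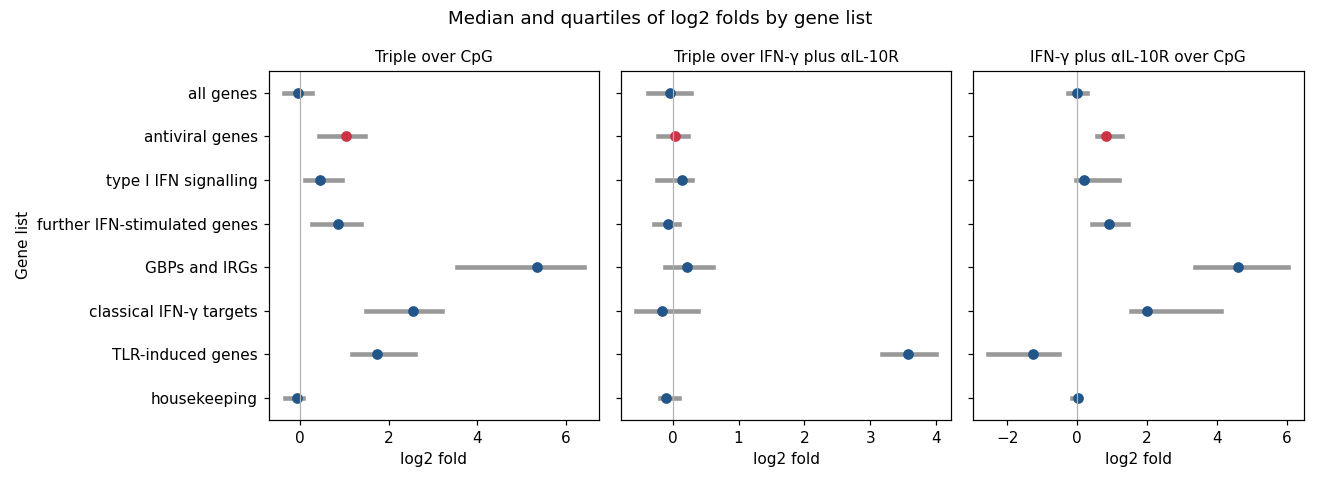
Median (point) and quartiles (bar) of the log2 folds of each gene list in the 3 comparisons, over genes well above background on all arrays, with the antiviral genes in red. The antiviral medians of 1.05, 0.04 and 0.83 lie between those of all genes and those of the guanylate-binding proteins and immunity-related GTPases (5.34, 0.21 and 4.61), and the Toll-like receptor list stands apart in Triple over IFN-γ plus αIL-10R at 3.57.

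Markers of other cells were also read. Siglech, a marker of plasmacytoid dendritic cells, which are strong makers of type I interferon, gave 36076 with CpG, 35974 with IFN-γ plus αIL-10R and 29736 with Triple, with log2 folds of -0.22 for Triple over CpG and -0.24 for Triple over IFN-γ plus αIL-10R. Of the 4 dendritic cell markers, 3 were well above background on at least 1 array: Ccr7 gave 319, 225 and 2892, Zbtb46 gave 36.3 with IFN-γ plus αIL-10R and 133 with Triple, and Flt3 was not well above background on any array. Among the 4 neutrophil markers, Ly6g gave 555, 7699 and 2658, Elane gave 2839, 1615 and 1539, Camp gave 72.9 with CpG and 139 with Triple, and Mpo was at background throughout. Of 4 T cell markers, Cd4 (1646, 1943 and 1817) and Cd3e (858, 869 and 806) were well above background, and Cd3g and Cd8a were not. Cd79a, a B cell gene, gave 66.6, 75.5 and 43.6, above background on every array, and Ms4a1 was not. Fibroblast markers Col1a1 (177, 94.5 and 98.3) and Col1a2 (317, 216 and 319) were above it and Pdgfra was not. Epor (109 with CpG, 52.2 with IFN-γ plus αIL-10R) was above it among 3 erythroid markers, and the 1 mast cell marker measured, Mcpt4, was not. Whether such cells contributed to the antiviral signals was not tested.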

How the data were processed

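Total RNA of 3 BMDM cultures was measured on 1-colour arrays, 1 array per condition. The deposited scanner files, made by the authors with Agilent Feature Extraction 10.10.1.1, give intensity per spot: processed signals with background subtracted, raw means and local backgrounds, and other columns that are 0 or 1 marks. Per the file headers the probes are annotated on mm9. The value table deposited by the authors is in log2 and equals the processed signal minus 1 constant per array. It served as an alternative only.

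Control spots and spots marked as outliers were left out, log2 signals of a probe's repeated spots were averaged. Scaling set the 75th percentile equal between arrays, taken over the 21233 probes that were well above background on every one. A gene is represented by its brightest probe on average. It was called when over 2-fold different and well above background in the higher array, with dim signals raised to the lowest signal well above background (23.8, 26.7 and 26.3 for CpG, IFN-γ plus αIL-10R and Triple). Medians cover genes well above background on every array. The technical SD of a fold combines the pooled SDs of repeated spots, 0.093, 0.080 and 0.096.

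Named are every member and, of each other gene list, the 3 largest folds in each direction among genes well above background in both arrays of a comparison, with Stat2, the IRFs and the ligands of the pathway; some results are not reported here. The further probes of a member that are named, and the signals of Uba7, were picked after values were seen. The members and lists were chosen with earlier results of these data known. Of the 17 alternatives, 14 were planned and 3 were added after seeing the data, as was the spot SD by signal range. The calling code was run on simulated arrays with large changes put into genes well above background. That run covers neither dim signals nor variation between cultures. Protein sequences were not used here. Tools were Python 3.11.15, numpy 2.4.6, pandas 2.3.3, R 4.3.3 and limma 3.58.1.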

Additional observations from a re-analysis of the deposited data

How the results depend on the processing

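No paired analysis was possible since every group is 1 array. Alternatives changed background correction, scaling, filters, probes, outlier marks or the threshold. Of the 23 members over 2-fold higher with Triple than with CpG, 18 were so under every alternative with the 2-fold threshold, and the exceptions were Mx2, Usp18, Ifih1, Ifnb1 and Trim25. A further 9 passed 2-fold under at least 1 alternative (Oas1g, Oasl2, Eif2ak2, Ifi35, Ifi204, Ifitm3, Xaf1, Trim30a and Adar), and housekeeping scaling gave 32. Of the 15 higher with IFN-γ plus αIL-10R than with CpG, 14 were, Parp9 being the exception, and Oasl2 and Ifi204 were gained under some. No called member changed sign. A 1.5-fold threshold gave 1 member lower in Triple over CpG, 4 higher and 3 lower in Triple over IFN-γ plus αIL-10R, and 30 higher and 1 lower in IFN-γ plus αIL-10R over CpG. A 3-fold threshold gave 7 higher in Triple over CpG, 0 lower in Triple over IFN-γ plus αIL-10R and 9 higher in IFN-γ plus αIL-10R over CpG. Requiring both arrays well above background left 0 higher in Triple over IFN-γ plus αIL-10R, since Ifnb1 was above background on 1 array. Housekeeping scaling, which follows Hprt, the middle gene of that list on each array (log2 signals 15.74, 15.84 and 15.09), gave members' medians of 1.65, 0.76 and 0.71 in Triple over CpG, Triple over IFN-γ plus αIL-10R and IFN-γ plus αIL-10R over CpG, and 9 members higher and 0 lower in Triple over IFN-γ plus αIL-10R. It moved the median of all genes by 0.60, 0.72 and -0.12. Housekeeping scaling by each gene's deviation, added after seeing the data, moved it by 0.10, 0.04 and 0.06 and gave 1261 genes higher and 1586 lower in Triple over IFN-γ plus αIL-10R. In Triple over IFN-γ plus αIL-10R, spike-in scaling moved it by -0.16 and the members' median to -0.11, and the 75th percentile of all probes, median scaling and the authors' table each moved it by 0.11. Genes of the whole array higher and lower numbered 3749 and 685 in Triple over CpG and 4730 and 689 in Triple over IFN-γ plus αIL-10R under housekeeping scaling. With no filter they were 2767 and 3022, 2522 and 3088, and 2502 and 2369 in Triple over CpG, Triple over IFN-γ plus αIL-10R and IFN-γ plus αIL-10R over CpG. At 1.5-fold they were 2619 and 3017, 2410 and 3143, and 2347 and 2049, and at 3-fold 706 and 701, 620 and 822, and 515 and 421. Normexp correction gave 916 lower in Triple over CpG, 1100 lower in Triple over IFN-γ plus αIL-10R, and 708 higher and 554 lower in IFN-γ plus αIL-10R over CpG, and the cause was not tested. The higher genes made up 47.3% and 41.4% of calls in the comparisons of Triple with CpG and with IFN-γ plus αIL-10R, 84.6% and 87.3% under housekeeping scaling, and 31.7% in the latter under spike-in scaling. Signals near background, as for Ifnb1 and Oas1g, limit what their folds can show.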
